A study of Mus musculus with 2 samples.

Results

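Potassium channel genes were examined for binding of CTCF, a DNA-binding factor found at the anchors of chromatin loops, in the hindbrain of newborn mice. The members were the protein-coding genes of GENCODE vM21 whose symbol starts with Kcn, leaving out Kcnq1 and Kcnk9, which gave 92 of 21938 protein-coding genes on the assembled chromosomes. A peak belonged to a member when its summit, the base of highest signal, lay within the gene or within 10 kb of either end. By this rule 348 of the 62686 peaks of the authors' optimal set lay in the windows of members, and 2 of them served a pair of members each, so that members held 350 in all. The study made 1 group of 2 CTCF ChIP-seq libraries, numbered as biological replicates 1 and 2, from strain B6NCrl at 0 days after birth. Both libraries name the same sample of pulverised hindbrains pooled over several dissections, their sex is unrecorded, and no altered allele or treatment is given in the labels. The spread between the libraries may therefore be technical. No test between groups is possible with 1 group, and a peak list cannot be checked against cell type markers, so the values below are descriptions set beside all protein-coding genes.

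Potassium channels let potassium ions leave the cell and so set the resting potential, end the action potential and time repetitive firing. The voltage-gated pore subunits assemble as tetramers and are tuned by silent subunits that form no channel of their own and by auxiliary subunits in the cytoplasm or membrane. Inward rectifiers hold the membrane near rest and answer to G proteins or ATP, tandem-pore channels carry leak current, and calcium-activated channels follow each spike with a hyperpolarisation. In the hindbrain these channels are known for the fast spiking of auditory brainstem neurons and for the pacemaking of Purkinje cells.

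Of the 12 strongest peaks of the members, 11 are shown first, because they carry the CTCF core motif in clear form and most of them lie outside promoters. The motif searched was the CTCF core motif of 14 bp, on both strands, with at most 2 mismatches and wholly within 50 bp of the summit. Each stretch of 44 bases below is read on the strand of the motif, 5′ to 3′, from GRCm38 (mm10), and the capitals mark the motif.
Kcnk18, 3′ flank, chr19:59239617-59239660, plus strand, 0 mismatches: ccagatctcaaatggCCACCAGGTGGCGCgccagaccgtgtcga
Kcnma1, intron, chr14:24008450-24008493, minus strand, 1 mismatch: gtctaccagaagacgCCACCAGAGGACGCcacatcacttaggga
Kcnip1, intron, chr11:33917748-33917791, minus strand, 0 mismatches: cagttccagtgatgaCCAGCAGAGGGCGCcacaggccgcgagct
Kcnh2, 5′ flank, chr5:24361021-24361064, plus strand, 2 mismatches: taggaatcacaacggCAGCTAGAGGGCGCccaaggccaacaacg
Kcnq3, intron, chr15:66034066-66034109, plus strand, 0 mismatches: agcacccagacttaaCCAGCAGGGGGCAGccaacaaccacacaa
Kcnn1, intron, chr8:70844695-70844738, plus strand, 0 mismatches: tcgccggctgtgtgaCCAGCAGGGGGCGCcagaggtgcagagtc
Kcnk16, 3′ flank, chr14:20258646-20258689, minus strand, 0 mismatches: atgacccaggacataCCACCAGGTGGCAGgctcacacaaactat
Kcnc4, 5′ flank, chr3:107462332-107462375, minus strand, 0 mismatches: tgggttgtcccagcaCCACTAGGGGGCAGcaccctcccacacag
Kcnc1, 5′ flank, chr7:46393309-46393352, plus strand, 1 mismatch: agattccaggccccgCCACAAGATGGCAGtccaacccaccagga
Kcnip1, intron, chr11:33721484-33721527, minus strand, 0 mismatches: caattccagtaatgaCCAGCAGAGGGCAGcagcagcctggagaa
Kcna2, 5′ flank, chr3:107094166-107094209, plus strand, 1 mismatch: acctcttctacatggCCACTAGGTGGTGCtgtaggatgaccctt

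These 11 sites stood high in both libraries. The signal value printed here is the authors' own for each peak. Its scale is unknown, and it serves to rank peaks within a list. The peak beyond the 3′ end of Kcnk18, which encodes a leak channel of sensory neurons, had a signal of 628.6 and ranked 10 in the optimal set, 11 in replicate 1 and 15 in replicate 2. The peak in Kcnma1, the pore of the large-conductance calcium-activated channel, had a signal of 487.0 and ranks of 370 and 487 in replicates 1 and 2. In Kcnip1, which encodes a calcium-binding partner of the voltage-gated Kcnd channels, the stronger peak had a signal of 469.1 and ranks of 659 and 713. All these ranks are among 300000 peaks listed for each library. The sites at Kcnh2 and Kcnq3 moved more between libraries, from 1362 to 411 and from 451 to 1839. None of the 11 lay within 1 kb of a start site of its own gene.

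Member peaks were looked up in the list of each library. The optimal set was itself filtered for reproducibility, and each replicate list holds 300000 peaks, so overlap was to be had by selection. The shares below were not computed over all optimal peaks, and they describe the members without setting them apart. Of the 348 peaks, 347 overlapped a peak in the lists of both replicates by at least 1 bp, and the exception, a weak peak upstream of Kcnj4 with a signal of 20.2, was in replicate 1 only. Within the 62686 strongest peaks of both libraries lay 282 (81.0%). The conservative set held 298 (85.6%) at the same summit. Across these peaks the larger of the 2 ranks was 1.17 times the smaller at the median. Overlapping optimal peaks, as in Kcnj6, can share 1 peak of a replicate list.

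**Figure D1:**
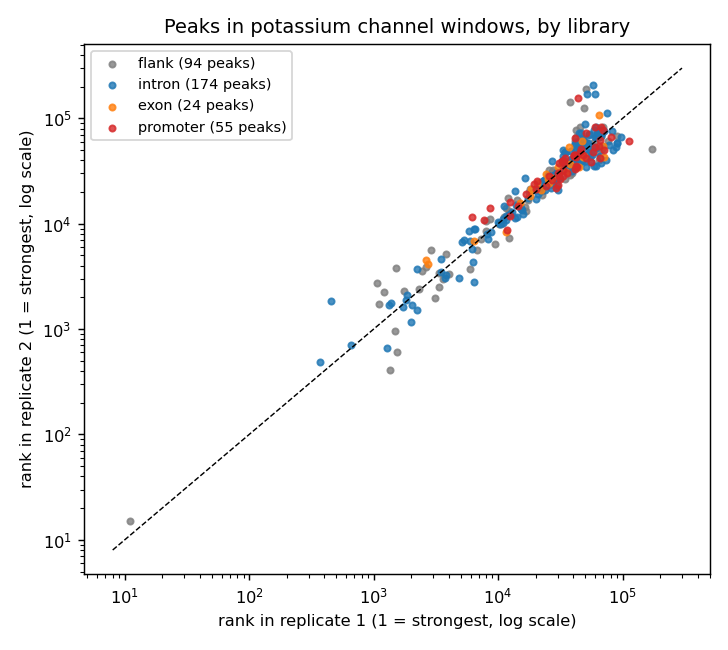
Rank of each peak in the windows of potassium channel genes in the list of replicate 1 (x axis, log scale) and of replicate 2 (y axis, log scale), where 1 is the strongest of 300000; points are coloured by place and the dashed line marks equal ranks. The points follow the line from the peak beyond Kcnk18, at ranks 11 and 15, down to the weak peaks, where most promoter peaks lie.

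Promoters of potassium channel genes held CTCF peaks of middling strength. A member was called occupied if any of its annotated transcripts started within 1 kb of a summit. This held for 42 of 92 members (45.7%, Wilson 95% interval 35.9 to 55.8), against 39.8% of all protein-coding genes, a share inside that interval. The Wilson interval covers counting error over genes only. Promoters rich in CpG, those with a ratio of observed to expected CpG over 0.6 over about 1 kb at the 5′ end of the gene, are occupied more often in general. Among 35 members of this kind 21 (60%) were occupied against 58.1% of all such genes, and among 57 members with poorer promoters 21 (36.8%, Wilson interval 25.5 to 49.8) against 24.2%, which lies below that interval. The latter members are longer, with a median of 18.2 against 11.8 kb, and the part of length was not tested. From the shortest to the longest 20% of genes by window, members were occupied in 57.1%, 33.3%, 37.5%, 35.3% and 61.3%. All genes were occupied in 22.7%, 31.7%, 42.4%, 46.0% and 56.2%. The strongest promoter peak of an occupied member had a median signal of 66.0, against 75.4 for all occupied genes. None of the 55 promoter peaks of members reached the strongest 10% of the optimal set, which held 7.49% of the promoter peaks of all protein-coding genes.

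The members with the highest promoter signal came from several kinds of channel. Kcna7, a voltage-gated channel gene of muscle, led with a signal of 284.8 at 410 bp upstream of its start, and ranks of 6201 and 11564 in replicates 1 and 2. Kcnh1, a slow voltage-gated channel gene of the brain, followed with 274.2 (ranks 7764 and 10822), 94 bp upstream. Kcnk13, a leak channel gene, had 259.0 (ranks 11743 and 8805). The last lay 45 bp upstream of the start, so that all 3 peaks stood just before the 5′ end of their gene. Kcnj6, a G protein-gated rectifier of cerebellar granule cells, had 250.2, and Kcnj11, the pore of ATP-sensitive channels, had 232.2. In Kcnc1, which supports fast spiking, the strongest of 3 promoter peaks (209.7) lay 313 bp downstream of a later start, and the peaks by its 5′ end had signals of 96.7 and 38.9. Kcnf1, a silent subunit, had 203.5, and Kcnab2, a cytoplasmic auxiliary subunit, had 169.9 at a later start. Lower down followed Kcnma1 (142.1), Kcnh4 (134.5), Kcnk15 (124.1), Kcns2 (117.7), Kcnv1 (103.8) and Kcnmb4 (98.4).

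**Figure D2:**
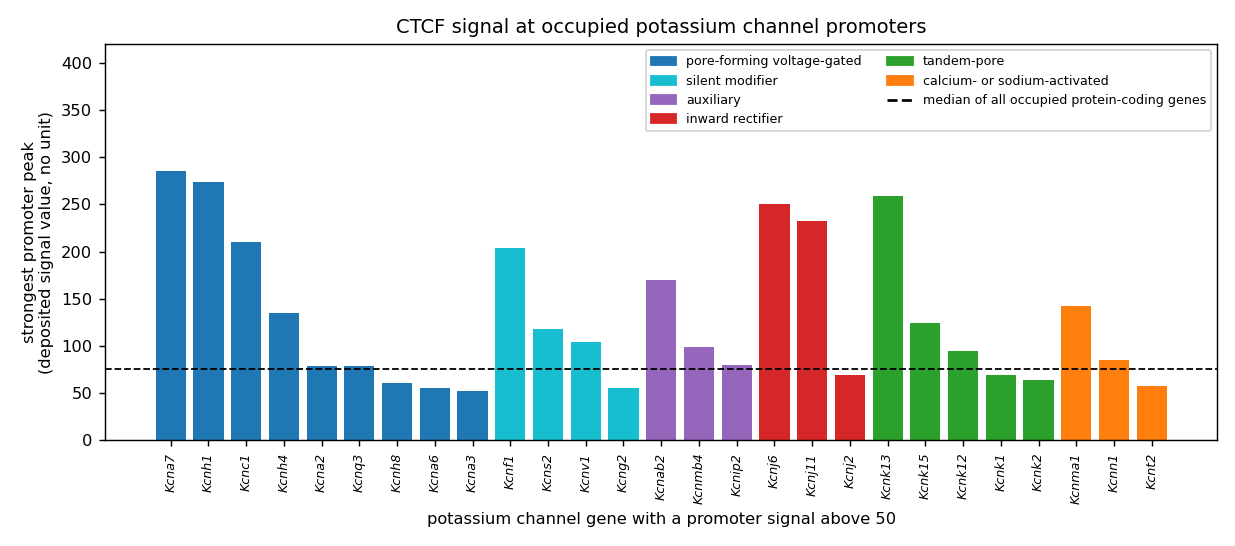
Signal value of the strongest promoter peak (y axis, the authors' value without a unit) in the 27 potassium channel genes where it was above 50 (x axis), grouped and coloured by the role of the subunit; the other 15 occupied genes are not drawn. The dashed line is the median over all occupied protein-coding genes, 75.4; Kcna7 is highest at 284.8.

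Most promoter peaks of members carried no recognisable core motif. A match lay at the summit of 21 of 55 (38.2%, Wilson interval 26.5 to 51.4), against 42.95% of the promoter peaks of all protein-coding genes. Windows of the same length 1 kb to the left and right of these 55 summits each held a match in 5.45%. With the motif the median signal was 80.0, and without it 41.7, against 112.2 and 43.9 for the promoter peaks of all protein-coding genes. Kcnab2 had the only promoter peak with 0 mismatches. The median distance from the summit to the nearest start was 267 bp, with 28 summits upstream and 27 downstream of it.

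The promoters of Kcnk13 and Kcnk15, both tandem-pore genes, show the motif close to a start under a peak. They are the members whose RefSeq promoter window, from 250 bases before to 50 after the start, holds the motif found at the summit. Both are read 5′ to 3′ on the plus strand of GRCm38.p6, with the motif in capitals and 1 mismatch each.
Kcnk13, chr12:99964249-99964548: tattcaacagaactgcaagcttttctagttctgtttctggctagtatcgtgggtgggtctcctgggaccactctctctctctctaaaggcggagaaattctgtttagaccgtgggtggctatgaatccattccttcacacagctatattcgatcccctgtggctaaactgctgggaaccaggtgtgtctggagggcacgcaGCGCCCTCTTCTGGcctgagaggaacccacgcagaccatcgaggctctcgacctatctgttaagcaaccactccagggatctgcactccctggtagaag
Kcnk15, chr2:163853500-163853799: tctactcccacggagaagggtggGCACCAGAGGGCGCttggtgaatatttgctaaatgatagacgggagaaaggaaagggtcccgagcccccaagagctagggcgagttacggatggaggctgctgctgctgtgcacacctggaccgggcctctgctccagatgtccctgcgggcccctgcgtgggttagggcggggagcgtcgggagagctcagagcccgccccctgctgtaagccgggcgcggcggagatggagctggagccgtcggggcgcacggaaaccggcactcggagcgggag
In Kcnk13 the motif runs against the gene and begins 49 bases before the start, while in Kcnk15 it runs with the gene and begins 227 bases before it. Their peaks had signals of 259.0 and 124.1. RefSeq windows were found for 69 of the 92 members by symbol, and 13 of their 94 windows (13.8%) held a match anywhere, against 14.4% of all 32851 windows. A match is a description of the sequence and not a binding site.

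Many members have several start sites, and peaks were counted by group of starts. Counts of groups with a peak, and of members by which group had one, were made for members only. They have no share over all protein-coding genes beside them. Starts less than 2 kb from the next were taken as 1 group, which gave the 92 members 182 groups, and 47 of these had a peak. Among the 46 members with more than 1 group, 24 were occupied (52.2%, against 50.8% of all such genes). Only 4 had a peak at more than 1 group. Of the occupied members 38 had a peak at the 5′ group, and 4 had one only at a later group, among them Kcnip3, Kcnk2 and Kcnma1. These were named after their values were seen. The summit of this Kcnma1 peak also lay within 1 kb of the start of 4930519K11Rik, and 11 of the 55 promoter peaks in all lay within 1 kb of the start of another gene.

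Occupancy was then compared by the role of the subunit. Peaks stood at the promoters of 15 of 29 voltage-gated pore genes (51.7%, Wilson interval 34.4 to 68.6), of 5 of 10 silent subunits (50%) and 7 of 13 tandem-pore channels (53.8%). Among the Kcnma, Kcnn, Kcnt and Kcnu genes 6 of 8 were occupied (75%, 40.9 to 92.9). These are called activated channels here by symbol, and gating by calcium or sodium was not checked for each gene. Promoter peaks were found in 5 of 16 auxiliary subunits (31.2%) and 4 of 15 inward rectifiers (26.7%, 10.9 to 52.0). All these intervals overlap one another, and all but that of the activated channels include the 39.8% of all protein-coding genes. The regulator Kcnrg had no peak.

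By the letter after Kcn the groups are small, and the share of all protein-coding genes to set beside them is 39.8%. Among the Kcnc genes, which encode channels of fast-spiking neurons, Kcnc1 had a promoter signal of 209.7, Kcnc4 of 42.0 and Kcnc2 of 29.7. No count is given for the Kcnb and Kcnc groups, whose members are not all reported here. None of the 5 Kcne genes, which encode single-span auxiliary subunits of heart and epithelia, had a promoter peak, though 4 of them had peaks in the gene or its flanks. The Wilson interval for Kcne, 0 to 43.4%, includes the share of all genes. All 5 have promoters poor in CpG, a kind occupied in 24.2% of all such genes. Of the others, Kcna had 5 of 11, Kcnk 7 of 13, Kcnj 4 of 15, Kcnh 3 of 8, Kcnn and Kcni 3 of 4 each, Kcnm 2 of 5, Kcnq 2 of 4 and Kcng 1 of 4. Splitting Kcna into its pore genes (4 of 8) and the auxiliary Kcnab genes (1 of 3) gave intervals that both include the background. Kcnd and Kcns had 1 and 2 of 3, Kcnv 1 of 2, Kcnt 2 of 2, Kcnf 1 of 1, and Kcnu and Kcnr 0 of 1 each.

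Members were also listed by where they are best known, in hindbrain neurons or mainly outside the brain. The lists were written with earlier results of these data known, so the intervals below describe them and are no independent support. Some channels of the brain are on neither list, such as Kcnh1 with a promoter peak and Kcnh7 without. A promoter peak was found for 11 of 16 genes on a list of neuronal channels (68.8%, Wilson interval 44.4 to 85.8), and for 1 of 14 genes on a list of channels from other organs (7.14%, 1.27 to 31.5), beside 39.8% of all protein-coding genes. The neuronal genes with a peak included Kcna2, Kcna6, Kcnc1, Kcnip4, Kcnj6, Kcnk1, Kcnma1, Kcnn2, Kcnq3 and Kcnt1, and those without included Kcna1, Kcnd2, Kcnj3 and Kcnk3. Among the genes of other organs Kcna7 alone had a peak, the strongest promoter peak of all members. The lists differed in promoter type, with 9 of 16 against 1 of 14 rich in CpG, and in median length, 57.1 against 14.04 kb. Among promoters poor in CpG, 5 of 7 neuronal genes and 1 of 13 of the other list were occupied, beside 24.2% of all such genes. Among promoters rich in CpG, 6 of 9 neuronal genes and 0 of 1 of the other list were occupied, beside 58.1% of all such genes. The part of length and of the number of starts in these counts was not tested, and gene expression was not measured here. In the stronger 50% of the optimal peaks the counts were 5 of 16 and 1 of 14, and without replicate 2 they were 11 and 2. The glial channel genes Kcnj10 and Kcnj16 had no promoter peak.

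Partner genes of potassium channels stood near the members. Of 19, among them the Kcnd partners Dpp6 and Dpp10, the sulfonylurea receptors and the pacemaker channels, promoters were occupied in 10 (52.6%, Wilson interval 31.7 to 72.7). The 39.8% of all protein-coding genes lies inside that interval. Dpp6, at 910 kb, held 37 peaks, 29 of them in introns, more than any member. The longer Dlg2 (1973 kb, 19 peaks) and Cntnap2 (2245 kb, 17 peaks) also held more than any member. Sodium and calcium channel genes had promoter peaks in 14 of 40 (35%, 22.1 to 50.5), below the members but with an overlapping interval.

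**Figure D3:**
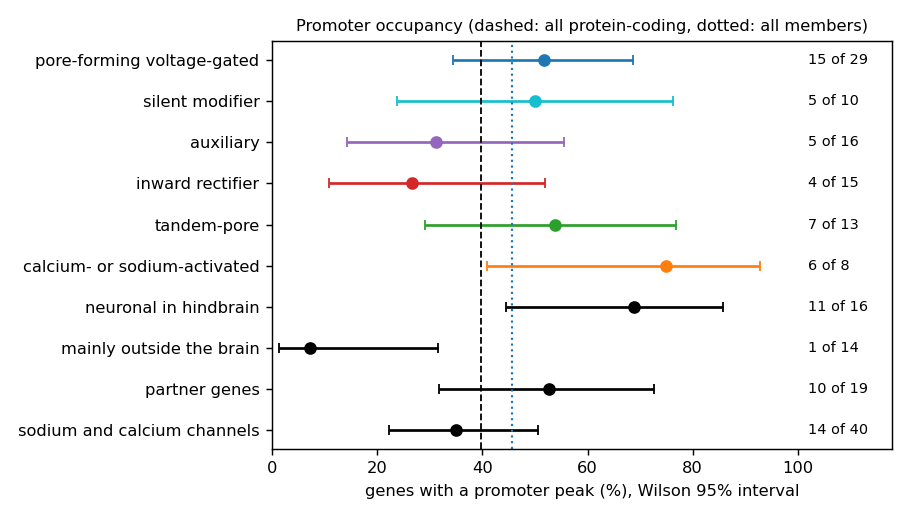
Share of genes with a CTCF peak within 1 kb of a start (x axis, percent, points with Wilson 95% intervals) by role of the subunit, for lists of neuronal channels and channels of other organs, partner genes, and sodium and calcium channels. The dashed line is the share of all protein-coding genes (39.8%) and the dotted line that of the members (45.7%); only the intervals for activated channels, neuronal channels and channels of other organs exclude the dashed line. The lists were written with earlier results of these data known.

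A peak lay in the gene or within 10 kb of it in 82 of 92 members (89.1%, Wilson interval 81.1 to 94.0), against 75.5% of all protein-coding genes. Outside the promoters of the gene itself a peak lay in 77 members (83.7%, 74.8 to 89.9), against 69.9%. Members are longer, with a median of 28.2 kb against 17.4 kb, and the share rises with length among all genes. In classes of 20% of all genes each by window length, members had 5 of 7, 18 of 21, 15 of 16, 15 of 17 and 29 of 31 from the shortest class to the longest. The shares of all genes in these classes were 54.2%, 64.7%, 79.4%, 84.2% and 94.8%. Introns held a peak in 49 of 92 members (against 38.0% of all genes), exons outside promoters in 20 (against 11.9%) and flanks in 56 (against 53.5%).

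Peaks were sparse in the introns of members. Over the union of the windows, 11.8 Mb, members had 29.4 peaks per Mb (exact Poisson 95% interval 26.4 to 32.7), against 35.7 over the windows of all protein-coding genes. Places were then compared over each gene's own window, where a neighbouring gene in a flank counts as flank in both sets, a way of counting added after the data were seen. Introns made up 78.7% of the windows of members, against 61.0% for all genes, and held 174 peaks, 18.6 per Mb (16.0 to 21.6), against 26.9. Flanks had 55.5 per Mb (45.0 to 67.7) against 52.0, exons 64.6 (41.4 to 96.1) against 42.1, and promoters 134 (101.3 to 175) against 119. The values of all genes lie inside these intervals for flanks, exons and promoters, and above the interval for introns. This reading depends on the way of counting for flanks and exons. Over the union of the windows flanks had 55.2 per Mb (44.7 to 67.5) against 38.1, and exons 64.6 (41.4 to 96.1) against 40.9. Both values of all genes lie below those intervals. For introns (26.1 in all genes) and promoters (113) the reading was the same in both counts. In the longest class of genes members had 20.5 peaks per Mb of window against 29.99 for all genes of that class, but their median length was 249 against 110 kb. In the 4 shorter classes members had 68.2, 69.5, 84.0 and 51.5 peaks per Mb, against 55.8, 60.7, 60.7 and 48.6. Without flanks the density was 25.02 against 35.1 per Mb. With flanks of 20 kb it was 32.2 (29.2 to 35.3) against 34.8, which lies inside that interval.

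By place, the median signal of member peaks was 109.3 in flanks, 61.3 in introns, 97.5 in exons and 54.8 at promoters, against 93.4, 69.1, 78.8 and 58.3 for all protein-coding genes. The core motif lay under 73 of 97 flank peaks (75.3%, Wilson interval 65.8 to 82.8) and 116 of 174 intron peaks (66.7%, 59.4 to 73.2), against 67.1% and 67.9% for all genes, both inside these intervals. Under exon peaks it was found in 11 of 24 (45.8%, 27.9 to 64.9), against 64.5% for all genes. Over all 348 peaks the share was 62.9% (57.7 to 67.8), against 63.6% of peaks in windows of all protein-coding genes and 65.4% of all optimal peaks. Windows 1 kb to the left and right of the member summits held a match in 2.59% and 4.31%.

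A few genes held many of the sites. In 8 of 92 members (8.70%) there were 10 peaks or more, against 3.48% of all protein-coding genes, and these 8 held 103 of the 350 (29.4%). Members are longer than other genes, and the part of length in this count was not tested. In the longest class by window, members had a mean of 6.26 peaks against 5.94 for all genes, at median lengths of 249 and 110 kb. Kcnip1 and Kcnma1 had 16 each, Kcnj6 had 15, Kcnd3 and Kcnn3 had 13, and Kcnab2, Kcnip4 and Kcnq5 had 10. Kcnn1 and Kcnn2, pores of small-conductance calcium-activated channels, followed with 8. Their order by number is not their order by length. Kcnip4 (1135 kb) had 0.865 peaks per 100 kb of window, Kcnma1 (725 kb) had 2.15, Kcnj6 (249 kb) had 5.57 and Kcnab2 (87.1 kb) had 9.33.

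In Kcnma1 all but 1 of the 16 peaks were in introns. Their signals ran from 25.7 to 487.0, and the strongest, on chromosome 14 (24008324 to 24008610), lay 3613 bp upstream of the nearest annotated start, near the 5′ end of the gene. In Kcnip1, 15 peaks were in introns, with signals from 21.3 to 469.1, and the second and the third were 427.0 and 410.5. At Kcnj6 a cluster of 5 intron peaks lay between 94785903 and 94793297 on chromosome 16. Its 2 strongest had signals of 420.4 and 393.2 and ranks of 1709 and 2216 in replicate 1 and of 1626 and 3741 in replicate 2. A pair of overlapping weak peaks in this cluster (22.2 and 7.22) matched the same replicate peaks.

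Kcnd3 and Kcnn3 had as many peaks as each other and a different spread of strength. In Kcnd3, a pore of rapidly inactivating current, 12 of the 13 signals lay between 24.97 and 146.2, and the peak past its 3′ end reached 415.5. In Kcnn3, 3 peaks lay upstream of the gene with signals of 264.1, 193.2 and 71.1, while its 9 intron peaks did not exceed 92.8. Its promoter peak was weak (25.8) and ranked 43492 in replicate 1 and 155897 in replicate 2, so that it was not among the 62686 strongest of replicate 2.

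**Figure D4:**
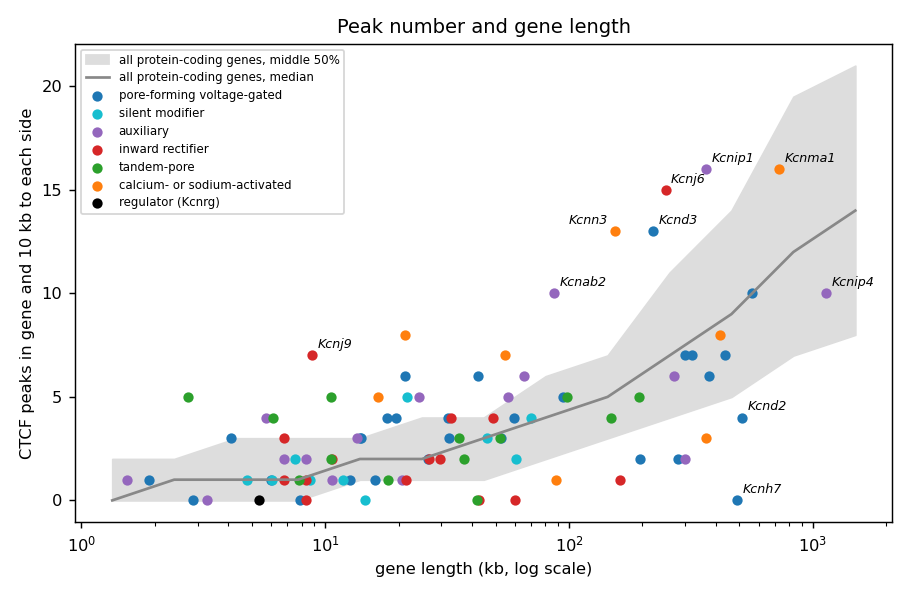
Number of CTCF peaks in each potassium channel gene and 10 kb to each side (y axis) against gene length (x axis, kb, log scale), coloured by role; the grey line and band are the median and the middle 50% of all protein-coding genes in bins of length. Kcnip1, Kcnma1, Kcnj6, Kcnd3, Kcnn3 and Kcnab2 lie above the grey line, all but Kcnma1 also above the band. Other long members lie low. Kcnh7 has no peak at 491 kb, and Kcnd2 (4 peaks at 514 kb) and Kcnc2 (2 at 196 kb) lie below the band. Kcnip4 and Kcnb2 lie below the line.

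Per length of window, short genes led. Kcnj9, a G protein-gated rectifier, had 7 peaks and 24.3 per 100 kb, the highest of the members. Kcnk7 had 21.98 per 100 kb, with 4 of its 5 peaks downstream, and Kcnn1 had 19.4. In the other letter groups of 4 genes or more the densest included Kcne2 (15.5), Kcnc4 (14.5), Kcna7 (12.4), Kcng1 (12.01), Kcnip2 (11.3), Kcnh3 (10.5) and Kcnmb4 (6.58). At Kcnc4 the 2 strong upstream peaks, with signals of 441.1 and 403.3, both carried a motif with 0 mismatches on the strand of the gene.

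No optimal peak lay in the gene or its flanks in 10 members: Kcna4, Kcna5, Kcne4, Kcnh7, Kcnj14, Kcnj15, Kcnj16, Kcnk5, Kcnrg and Kcnv2. Their lengths run from 2.86 kb (Kcna5) to 59.9 kb (Kcnj16), apart from Kcnh7 at 491 kb, which encodes a voltage-gated channel of the brain. Of the 236 protein-coding genes at least as long, 4 (1.69%) had no peak. Weaker peaks are listed at many of the promoters without an optimal peak. Of the 50 members without an optimal promoter peak 29 (58%) had one in the longer pooled list, against 48.6% of all unoccupied genes.

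Of 24 exon peaks outside promoters 13 had their summit in coding sequence, the strongest of them in Kcnj9. The sites in Kcnj9 and Kcnj10, the latter the main rectifier of astrocytes, are printed because they hold the motif with 0 mismatches inside coding sequence, on the strand of the motif from GRCm38 with the motif in capitals.
Kcnj9, coding exon, chr1:172326301-172326344, plus strand: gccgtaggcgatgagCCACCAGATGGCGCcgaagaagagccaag
Kcnj10, coding exon, chr1:172368956-172368999, minus strand: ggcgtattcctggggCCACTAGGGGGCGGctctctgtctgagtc
The Kcnj9 peak had a signal of 313.1 and ranks of 6392 and 6801, and the Kcnj10 peak 165.4 with ranks of 18128 and 18133. Each motif lies on the strand opposite to its gene. Outside coding sequence, exon peaks of Kcnq3 (379.4, ranks 2750 and 4119) and Kcnn4 (370.7, ranks 2613 and 4558) were stronger. In coding sequence Kcnh4 followed Kcnj9 with 262.9, where the best sequence had 3 mismatches, and outside it Kcnk4 had a peak of 196.6.

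Both genes belong to 1 of the 2 member pairs whose windows overlap. Kcnj9 and Kcnj10 lie back to back on chromosome 1, 11891 bp apart, and 10 peaks fell in the span from 172310501 to 172384085. A peak of 197.7 between them served both genes, and its best matches tied between the strands. The strongest peak on the Kcnj9 side (374.5) and on the Kcnj10 side (364.5) were both in introns. In the other pair Kcnmb1, the auxiliary subunit of large-conductance channels in smooth muscle, lies inside Kcnip1 on the opposite strand. A peak of 56.2 counted as intronic for Kcnip1 and as upstream for Kcnmb1, which had no other.

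The strand of each motif was set against that of its gene. This comparison was chosen after the data were seen. In introns of members 38 of 114 motifs (33.3%, Wilson interval 25.3 to 42.4) lay on the strand of the gene, against 49.4% of 16582 over all protein-coding genes. Upstream of members 28 of 37 (75.7%, 59.9 to 86.6) did so against 49.7%, and downstream 23 of 33 (69.7%, 52.7 to 82.6) against 54.6%. At promoters (12 of 21) and in exons (5 of 11) the shares lay near those of all genes, 52.8% and 46.8%.

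Of 41 members with an intron motif, 29 had more motifs against the gene than with it, 7 had fewer and 5 had equal numbers. Kcnma1 had 8 of 12 against the gene, Kcnip1 7 of 11, Kcnb2 5 of 6 and Kcnq3 3 of 3, while Kcnab2 and Kcnn3 each had 1 of 4. With any 1 member left out the share on the strand of the gene stayed between 31.8% (without Kcnab2) and 34.3% (without Kcnb2). The upstream share stayed between 73.5% and 80.0%. With at most 1 mismatch the intron share was 33.9% of 62 motifs and the upstream share 79.2% of 24, while the downstream share was 57.9% of 19, near the 54.9% of all genes. Motifs of 1 gene are neighbours and are not independent of one another.

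**Figure D5:**
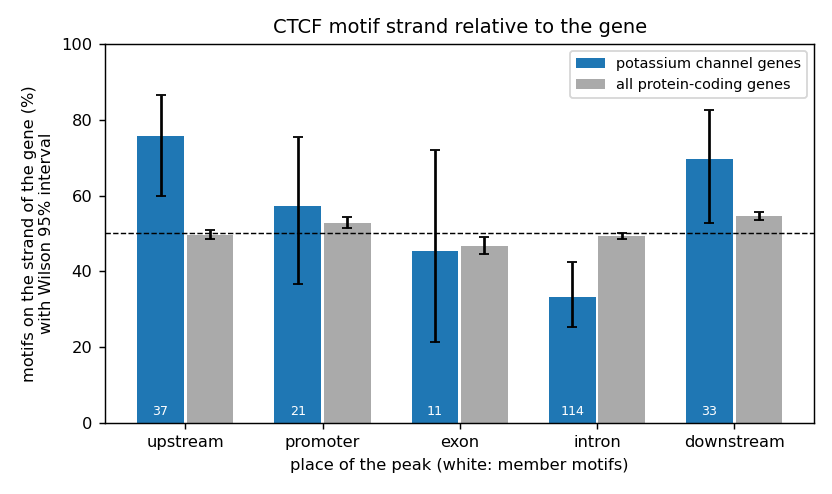
Share of CTCF core motifs on the same strand as the gene (y axis, percent, bars with Wilson 95% intervals) by place of the peak (x axis), for potassium channel genes (blue, number of motifs in white) and all protein-coding genes (grey); the dashed line marks 50%. The blue bars are low in introns (33.3%) and high upstream (75.7%) and downstream (69.7%), where the grey bars lie between 49.4% and 54.6%.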

How the data were processed

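CTCF ChIP-seq peaks of 2 libraries from newborn hindbrain were analysed. All files are narrowPeak lists on mm10 deposited by the authors, with 300000 peaks per library, 251251 in a pooled list, 59979 in the conservative and 62686 in the optimal set, per the deposited descriptions filtered by the irreproducible discovery rate (IDR). The signal value is a score of the authors' peak caller. The deposited q value, on a −log10 scale, was not used. For the aligner, the caller and the thresholds, the sources used here give nothing. Read counts are not in the lists, so the depth is unknown and intervals cover counting error only.

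Summits were assigned to genes of GENCODE vM21 in the order promoter, exon, intron, flank (Python 3.11.15, pandas 2.3.3, scipy 1.17.1), leaving out 9 optimal peaks off the assembled chromosomes. The assignment and the motif search were tested on simulated data. Replicate ranks come from the strongest overlapping peak (at least 1 bp). Named members were those with the 15 strongest promoter peaks, the 12 strongest peaks of any place, the 10 strongest exon peaks, the 10 largest peak numbers, the highest density in each letter group of 4 or more, overlapping windows or no peak. Others were picked after their values were seen. The members and lists were chosen with earlier results of these data known. No test was run, since 1 group allows none. Alternatives varied the peak set, promoter, flank and motif settings. Some members are not reported by name here.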

Additional observations from a re-analysis of the deposited data

How the results depend on the processing

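Promoter occupancy of the members was 20.7% in the stronger 50% of the optimal peaks (all protein-coding genes 20.2%) and 59.8% with promoters of 2.5 kb (49.2%), against 45.7% as reported. From replicate 1 or 2 alone it was 47.8% to 48.9%. Peak density fell from 29.4 to 14.4 per Mb in the stronger 50% (17.7) and to 25.02 without flanks (35.1), and lay below that of all genes in all 9 alternatives tried. With flanks of 20 kb, however, the interval of 29.2 to 35.3 included the 34.8 of all genes. Merging summits under 150 bp apart left the density unchanged at 29.4. One of the 9 alternatives, added after seeing the data, counted each gene's own window and gave 29.5 against 40.7. Without 1 replicate the density was 29.1 to 29.5. The median signal of member peaks, as a percentile of its list, was 48.0 (interval 43.3 to 54.3) in the main setting, against 49.6 for all genes. In the stronger 50% it was 55.1, and its interval of 50.6 to 64.7 lay above the 49.7 of all genes. Without replicate 1 it was 50.7 (all genes 49.5), and without replicate 2 it was 48.0 (49.4). The median was at or above that of all genes in 4 alternatives and below it in 3, so its direction depends on the setting. The motif share was 62.9% as reported, 80.7% in the stronger 50%, 33.6% with at most 1 mismatch, 84.2% with at most 3, 56.0% within 25 bp of the summit, and 62.5% to 64.2% without 1 replicate. The share of all genes moved with it, from 63.6% to 78.9%, 33.1%, 85.3% and 54.7%. The share of intron motifs against the gene rose from 66.7% to 76.8% in the stronger 50%, and was 63.0% in the conservative set. The alternatives for the motif strand and the gene lists were chosen after seeing the data. No paired analysis was possible because both libraries belong to 1 group. The scale of the signal and the read depth are not known here, so that a promoter without a listed peak may hold a weaker one.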

Other observations

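Peaks just outside the coding units of several Kcn genes formed runs of motifs in 1 direction. All 3 peaks upstream of Kcnn3 (signals of 264.1, 193.2 and 71.1) and all 3 upstream of Kcnc4 (441.1, 403.3 and 21.7) carried the motif on the strand of the gene. Downstream of Kcnk7, 3 of 4 peaks did so (248.6, 59.7 and 85.9), and the other had no match. These genes were picked after their values were seen. Others went the other way: both upstream motifs of Kcna7 and both downstream motifs of Kcng1 lay on the strand opposite to the gene. Over all members 9 of 37 upstream and 10 of 33 downstream motifs did so.

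A peak of 413.4 in an intron of Kcna10, a channel gene on chromosome 3 (107188312 to 107188558), ranked 2031 and 1693 in replicates 1 and 2 although its best sequence had 3 mismatches to the core motif. A peak of 393.2 in Kcnj6 was of the same kind.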
